A study of Mus musculus with 6 samples.

Results

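The GIMAP genes encode GTPases of immunity-associated proteins, a family of small GTP-binding proteins found mainly in lymphocytes. Their transcripts were followed on 6 liver arrays, 3 from mice given lipopolysaccharide (LPS, the endotoxin of Gram-negative bacteria) and 3 from mice given LPS together with D-galactosamine (LPS/GalN). The family was selected on its measured difference between these treatments, so the values of its members under that contrast are given as a description. Nothing is read from tests of them. Members are the targets whose deposited description names GTPase, IMAP family member 1, 3, 4, 5, 6, 7, 8 or 9. Of these 8 genes, 7 (Gimap1, Gimap3, Gimap4, Gimap5, Gimap6, Gimap7 and Gimap9) had at least 1 target among the 44170 on the array, with 2 targets for Gimap4. Gimap8 had no target matched by name or by position and was not analysed here.

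All mice were wild-type C57 BL/6 males aged 9 to 10 weeks. A mouse received 0.01 µg LPS, alone or with 20 mg GalN, and liver total RNA was taken 2.5 h later. GalN depletes uridine nucleotides in hepatocytes, which lowers their RNA synthesis and sensitises them to death signals such as tumour necrosis factor. The labels describe 3 separately treated mice in each group, with 1 array each. Untreated mice and mice given GalN alone are not part of these groups, so every difference below is LPS/GalN set against LPS. In whole liver, fewer cells of a type and less RNA per cell cannot be told apart.

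GIMAP proteins bind GTP and sit on membranes inside lymphocytes, where they are best known for keeping T and B cells alive. In the mouse the genes lie side by side in a single cluster on chromosome 6. Several members have also been studied outside lymphocytes, among them Gimap5, whose loss in mice causes both a shortage of T cells and abnormal livers. GIMAP proteins are a separate branch of GTPases from the interferon-inducible guanylate-binding and immunity-related families, which defend cells against intracellular microbes.

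Windows of 250 bases before the transcription start were taken from RefSeq (GRCm38.p6) for 4 members. Gimap1, Gimap4 and Gimap6 were higher on every LPS/GalN array than on every LPS array, as were 13% of all features. Of these, Gimap1 and Gimap4 were chosen for that difference and Gimap6 because its window lacked AGGAAG and TGTGGT on both strands. Gimap9 was chosen because its mean difference ran the other way. Capitals mark matches, on either strand, to AGGAAG (a form of the core bound by ETS factors, CTTCCT on the other strand) and to TGTGGT (a form of the core bound by RUNX factors, ACCACA on the other strand). Below, these exact letters are called the ETS core and the RUNX core. Other forms of these cores were not searched, so a window without capitals may hold them. Each window is printed 5′ to 3′ on the strand of the gene. The windows are chr6:48684328-48684577 (plus strand) for Gimap4, chr6:48738797-48739046 (plus) for Gimap1, chr6:48708245-48708494 (minus) for Gimap6 and chr6:48675885-48676134 (plus) for Gimap9.
Gimap4: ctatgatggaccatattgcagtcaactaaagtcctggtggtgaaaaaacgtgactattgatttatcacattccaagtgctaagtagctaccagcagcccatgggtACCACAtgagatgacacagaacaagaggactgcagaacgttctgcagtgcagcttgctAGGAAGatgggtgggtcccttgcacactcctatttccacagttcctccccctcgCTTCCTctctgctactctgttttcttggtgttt
Gimap1: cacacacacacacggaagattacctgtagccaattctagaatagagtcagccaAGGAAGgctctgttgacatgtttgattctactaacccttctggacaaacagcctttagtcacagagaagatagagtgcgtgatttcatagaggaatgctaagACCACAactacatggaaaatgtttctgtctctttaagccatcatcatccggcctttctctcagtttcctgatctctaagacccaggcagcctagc
Gimap6: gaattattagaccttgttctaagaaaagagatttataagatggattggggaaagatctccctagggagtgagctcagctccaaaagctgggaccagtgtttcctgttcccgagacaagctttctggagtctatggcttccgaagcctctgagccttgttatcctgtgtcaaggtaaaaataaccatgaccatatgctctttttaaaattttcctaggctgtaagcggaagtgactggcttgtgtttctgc
Gimap9: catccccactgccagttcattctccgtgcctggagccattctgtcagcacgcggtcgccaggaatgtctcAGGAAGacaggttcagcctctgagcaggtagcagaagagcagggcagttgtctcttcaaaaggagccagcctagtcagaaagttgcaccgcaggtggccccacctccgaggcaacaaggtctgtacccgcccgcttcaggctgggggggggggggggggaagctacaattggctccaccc

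The Gimap4 window held the ETS core on both strands as well as the RUNX core, and the Gimap1 window held each core. The Gimap9 window held the ETS core alone. The Gimap7 window, not printed, also held each core, and for Gimap7 the groups overlapped. RefSeq listed 9 windows for the 8 GIMAP genes, Gimap8 having a second start. The ETS core was present in 7 of the 9, against 29.5% of 32851 mouse windows of the same length, and the RUNX core in 3 of the 9 (Gimap1, Gimap4 and Gimap7), against 14% of windows. Neither an NF-kB site (0.14% of windows) nor an interferon-stimulated response element (2.98%) was found in any GIMAP window. The TATA box letters TATAAA (12.4% of windows) were found in the Gimap6 window only. There they lay on the strand opposite to the gene, near the end of the window farther from the start. These matches describe letters in these windows and are not binding sites measured here.

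Values are log2 of the authors' normalized probe intensity, and a target of random probes gave a background of 4.97 to 5.12 on this scale on the 6 arrays. Some arrays had high signals for marker genes of other tissues, and where these transcripts came from was not tested. The 24 measured T cell markers summed to an intensity of 1319 to 1956 on the LPS arrays, 1688 on LPS/GalN replicate 1, 24566 on replicate 2 and 14705 on replicate 3. The 18 measured markers of thymocytes (immature T cells of the thymus), 5 of which are also on the T cell list, summed to 2356 to 2699 on the LPS arrays and to 2805, 18711 and 12402 on the LPS/GalN arrays. For this reason LPS/GalN replicate 1 is set apart from replicates 2 and 3 throughout. The 14 intestine markers were high on LPS replicates 1 and 2, with sums of 36182 and 39984 against 2386 to 3684 on the other 4 arrays. The hepatocyte list varied little, with sums between 619003 and 682397.

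**Figure D1:**
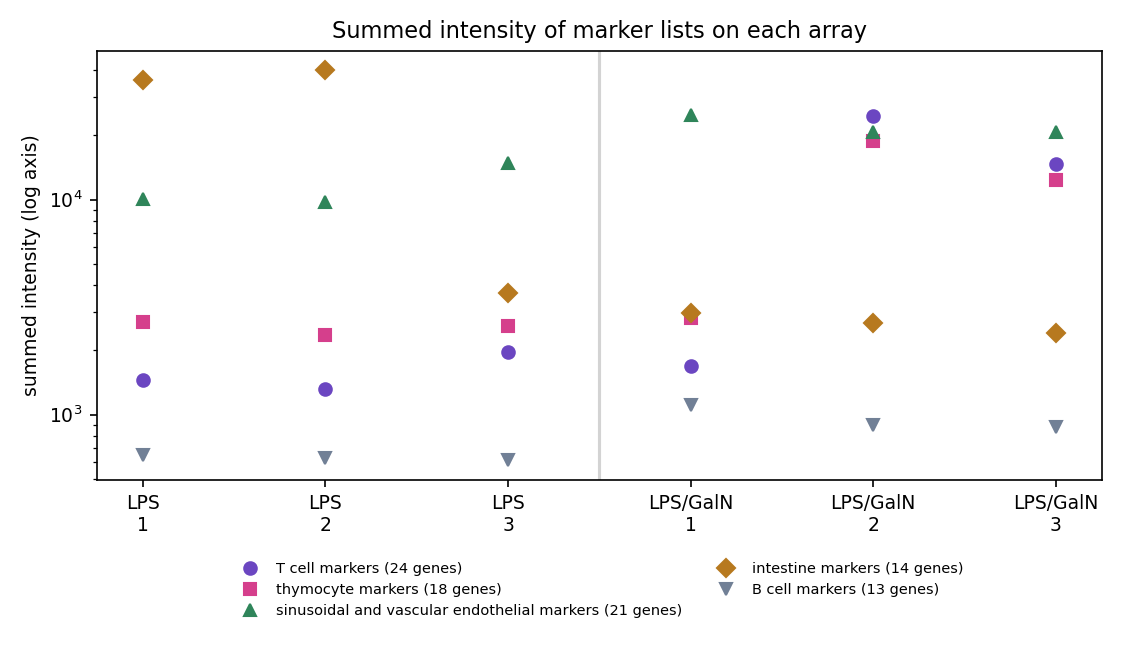
Summed intensity (vertical log axis) of 5 marker lists on each of the 6 arrays (horizontal axis), 1 point per array, each symbol and colour a list. T cell and thymocyte sums stand high on LPS/GalN replicates 2 and 3, intestine sums on LPS replicates 1 and 2, and endothelial sums lie at 20660 to 24638 on the LPS/GalN arrays against 9716 to 14837 on the LPS arrays.

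The family did not move as a block. By group means, 6 of the 7 members were higher in LPS/GalN and Gimap9 was lower, with a median log2 difference of 0.61 against 0.05 over all 35861 features. Gimap1, Gimap4 and Gimap6 were higher on every LPS/GalN array than on every LPS array, which 13% of all features also were. The limma fit over all features called Gimap1 and Gimap4 higher at an adjusted p under 0.05, beside 0.616% of features called higher and 3.64% called in either direction. Since this contrast chose the family, nothing is read from that count. Levels of different members come from different probes and are not set against each other.

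**Figure D2:**
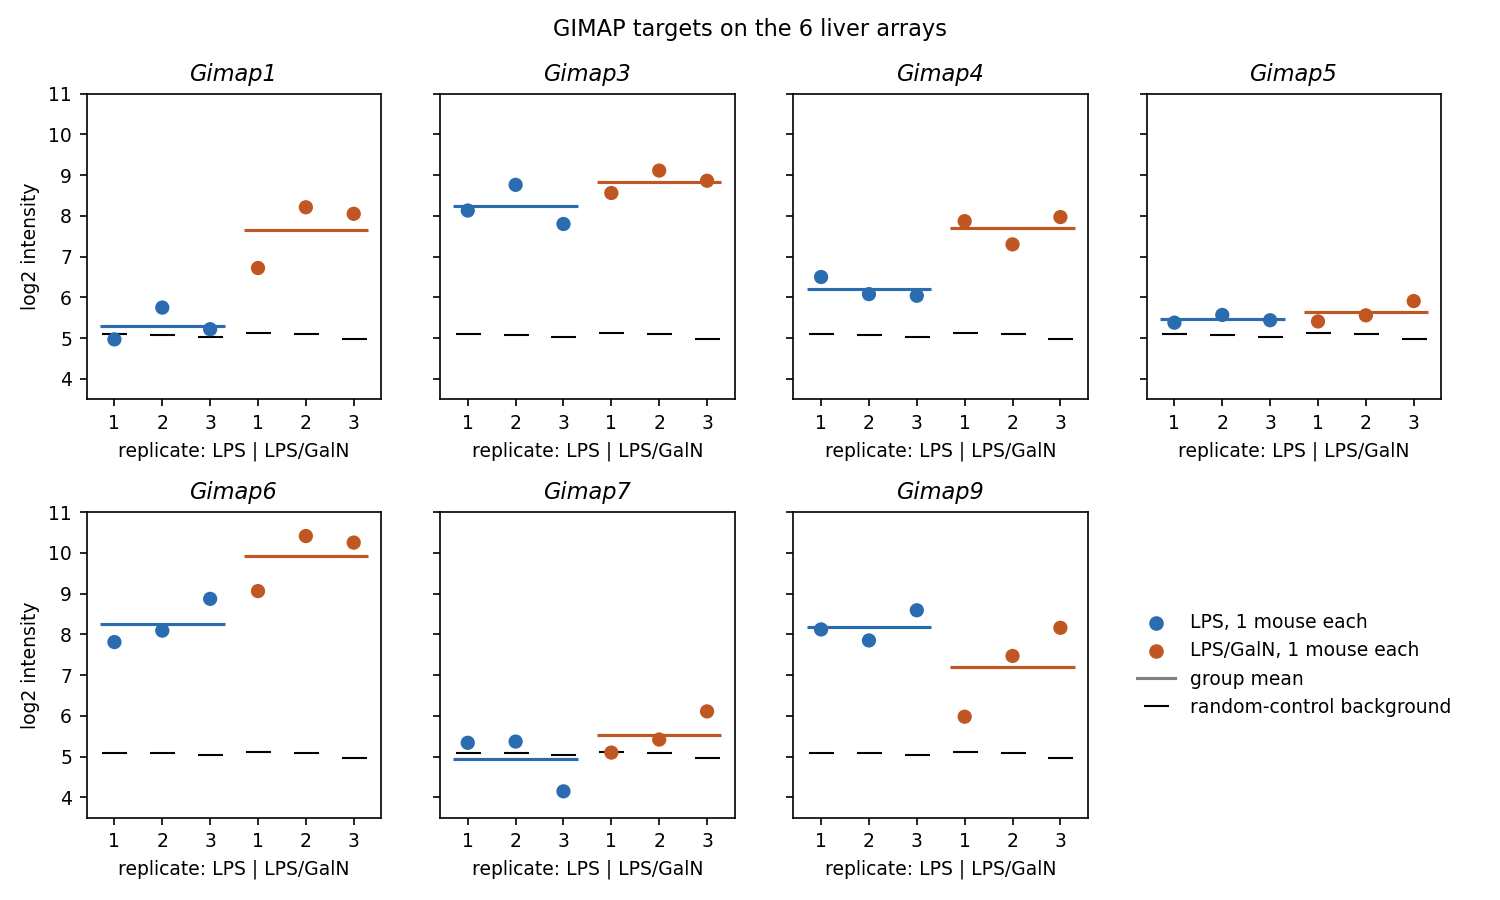
Log2 intensity (vertical axis) of the 7 measured GIMAP members on each array (horizontal axis, replicates 1 to 3 of each group). Points are single mice, coloured lines are group means and black dashes are the background on that array. Gimap1, Gimap4 and Gimap6 separate the groups, Gimap5 and Gimap7 lie near background, and Gimap9 is lowest on LPS/GalN replicate 1.

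Gimap1, which mice need for mature T and B cells, differed most between the groups. Its log2 values were 4.97, 5.75 and 5.22 on the LPS arrays and 6.72, 8.21 and 8.05 on the LPS/GalN arrays. The groups did not overlap, and the lowest LPS array was below background, so that 2 of 3 LPS arrays and every LPS/GalN array measured the transcript. The means were 5.31 ± 0.40 (SD, n = 3) in LPS and 7.66 ± 0.82 (SD, n = 3) in LPS/GalN, a log2 difference of 2.35 (SE 0.42) or 5.09-fold. All 3 LPS values lay within 1 log2 unit of background, so these folds compare deposited signals and are not estimates of the change in transcript number. LPS/GalN replicate 1 alone was 2.65-fold above the LPS mean, and replicates 2 and 3 were 7.06-fold above it. The lowest LPS/GalN value was on replicate 1, where the summed T cell markers lay within the range of the LPS arrays. That value lay above every LPS array, as 32.9% of all features did on replicate 1.

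Gimap4 is a T cell member that has been linked to the pace of programmed cell death. Its brighter target read 6.50, 6.08 and 6.04 on the LPS arrays and 7.87, 7.30 and 7.97 on the LPS/GalN arrays, with no overlap. The means were 6.21 ± 0.26 (SD, n = 3) and 7.71 ± 0.36 (SD, n = 3), a log2 difference of 1.51 (SE 0.27) or 2.84-fold. Unlike the other 6 measured members, Gimap4 was not higher on both of the arrays with raised thymocyte transcripts than on replicate 1. It was 3.16-fold above the LPS mean on replicate 1 and 2.69-fold above it on replicates 2 and 3. The second Gimap4 target, whose span lies within the first, read 5.68, 5.70 and 5.54 on the LPS arrays and 6.96, 6.34 and 6.75 on the LPS/GalN arrays. It had the same order of groups and again its lowest LPS/GalN value on replicate 2, with a 2.06-fold difference between means of 5.64 ± 0.09 and 6.68 ± 0.32 (SD, n = 3 each).

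Gimap6, which binds a protein of the autophagy machinery, was the third member whose groups did not overlap, though narrowly. Its values were 7.81, 8.09 and 8.87 on the LPS arrays and 9.06, 10.41 and 10.25 on the LPS/GalN arrays. The gap between the highest LPS array, replicate 3, and LPS/GalN replicate 1 was 0.19 on the log2 scale. The means were 8.26 ± 0.55 (SD, n = 3) and 9.91 ± 0.74 (SD, n = 3), a difference of 1.65 (SE 0.42) or 3.14-fold. Replicate 1 was 1.74-fold above the LPS mean and replicates 2 and 3 were 4.22-fold above it. Set against LPS replicate 3 alone, the LPS array with few intestine transcripts, the LPS/GalN mean was higher by 1.04.

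Gimap3, a close relative of Gimap5 in the mouse, read 8.13, 8.76 and 7.80 on the LPS arrays and 8.56, 9.11 and 8.86 on the LPS/GalN arrays. LPS replicate 2 lay above LPS/GalN replicate 1, so the groups overlapped. The means were 8.23 ± 0.49 (SD, n = 3) and 8.84 ± 0.28 (SD, n = 3), a difference of 0.61 (SE 0.30) or 1.53-fold. It was 0.33 above the LPS mean on replicate 1 and 0.76 above it on replicates 2 and 3.

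Gimap5, the member best known for T cell survival, lay within 1 log2 unit of background on every array. Its values were 5.38, 5.57 and 5.44 on the LPS arrays and 5.41, 5.56 and 5.91 on the LPS/GalN arrays, and the groups overlapped. The difference of 0.16 (SE 0.23) had opposite signs on replicate 1 (-0.06) and on replicates 2 and 3 (0.27). The difference was smaller than its standard error, and a change of either sign was not detectable at this signal over background.

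Gimap7, a GTPase whose activity depends on pairing with itself or a relative, was above background on 4 of the 6 arrays. It read 5.34, 5.37 and 4.15 on the LPS arrays and 5.10, 5.42 and 6.11 on the LPS/GalN arrays. LPS replicate 3 and LPS/GalN replicate 1 were not above background, and the groups overlapped. Its difference of 0.59 (SE 0.40) rested on LPS replicate 3 and LPS/GalN replicate 3, the extremes of their groups, and fell to 0.19 at the lowest when single arrays were left out.

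Gimap9, whose role in lymphocytes is less described, was the only measured member with a lower mean in LPS/GalN. It read 8.12, 7.85 and 8.59 on the LPS arrays and 5.98, 7.47 and 8.16 on the LPS/GalN arrays. LPS/GalN replicate 3 lay above 2 of the LPS arrays, so the groups overlapped, while replicate 1 stood below all 5 other arrays. The means were 8.19 ± 0.38 (SD, n = 3) and 7.21 ± 1.11 (SD, n = 3), a log2 difference of -0.98 (SE 0.52), or 1.98-fold lower. LPS/GalN replicate 1 was 4.62-fold below the LPS mean. Without that array the difference was -0.37, and replicates 2 and 3 together were 3.57-fold above replicate 1.

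Setting replicate 1 apart divided the members. On that array Gimap1, Gimap4 and Gimap6 were above every LPS array, beside 32.9% of all features, and Gimap9 was below every LPS array, beside 26.5%. The median member was 0.33 above its LPS mean on replicate 1 and 0.81 above it on replicates 2 and 3, against 0.05 and 0.04 over all features. Both comparisons use the same LPS arrays. Replicates 2 and 3 were both above replicate 1 for 6 of the 7 members, the exception being Gimap4, and for 33.1% of all features.

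**Figure D3:**
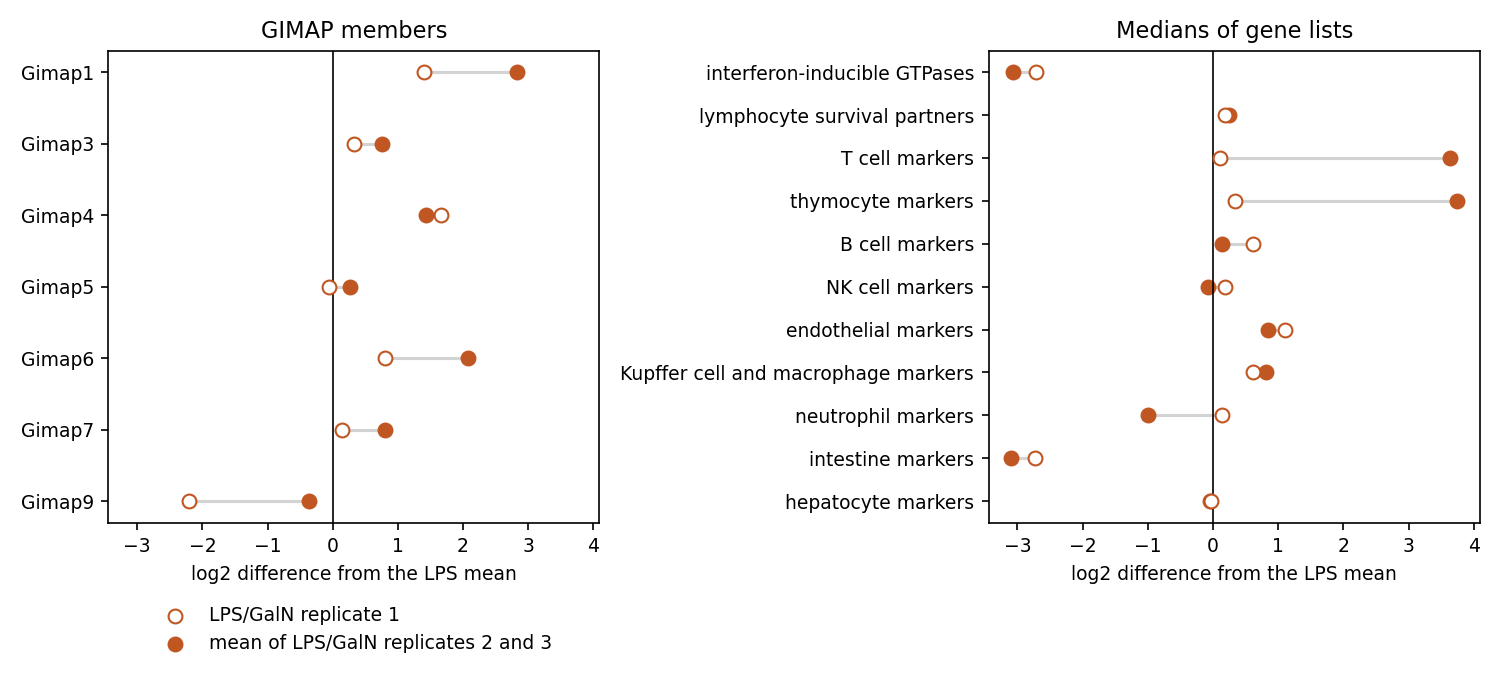
Log2 difference from the LPS mean (horizontal axes) on LPS/GalN replicate 1 (open circles) and on the mean of LPS/GalN replicates 2 and 3 (filled circles), for each GIMAP member (left) and as the median of each gene list (right). Gimap1 and Gimap6 lie farther right on replicates 2 and 3, Gimap4 does not, and T cell and thymocyte medians move from 0.11 and 0.33 to 3.64 and 3.75.

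The defining T cell marker Cd3e, the CD3 epsilon chain, gives the same split for a gene of the T cells themselves. It read 6.46, 5.75 and 5.87 on the LPS arrays and 4.89, 10.54 and 9.51 on the LPS/GalN arrays, the first of these below the background of 5.12. On replicate 1, 21 of the 24 T cell markers were above background, against 18, 19 and 21 on the LPS arrays, and the others were Cd3e, Cd5 and Skap1 (Cd5 and Skap1 named after their values were seen). Cd4 and Cd8a, the coreceptors of helper and cytotoxic T cells, read 5.57 and 5.83 on replicate 1 and between 10.02 and 10.89 on replicates 2 and 3. Over the whole list, 21 of 24 T cell markers and 17 of 18 thymocyte markers were higher on both replicates 2 and 3 than on replicate 1. Of all features, 33.1% were. Limma called none of either list over the 3 mice (0 at an adjusted p under 0.05, 17 and 13 at an unadjusted p under 0.05), and without LPS/GalN replicate 1 it called 19 and 13 higher. Replicate 1 was set apart on these same transcripts, so these counts describe the split and do not test it. The part of these cells' transcripts in the differences of Gimap1, Gimap3, Gimap6 and Gimap9 was not tested.

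The endothelial, B cell, natural killer and macrophage lists were less split between the LPS/GalN arrays than the T cell list, by their medians. Of 21 endothelial markers, 17 were above every LPS array on replicate 1, beside 32.9% of all features. The list's median was 1.10 above the LPS mean there and 0.85 above it on replicates 2 and 3. Its median difference was 0.93 with all arrays and 0.52 against LPS replicate 3 alone, the LPS array with few intestine transcripts. Over the 3 mice limma called 4 higher, beside 0.616% of all features. It called 1 of the 21 when any single LPS/GalN array was left out, 7 without LPS replicate 3, and 0 without LPS replicate 1 or without LPS replicate 2 (11 in each case at an unadjusted p under 0.05). Without LPS/GalN replicates 2 and 3 together it called 0 (10 at an unadjusted p under 0.05). Pecam1, an adhesion molecule of endothelial cells, was called higher (means of 9.27 ± 0.37 with LPS and 10.96 ± 0.12 with LPS/GalN, SD over 3 mice; limma adjusted p = 0.00969, and 0.0511 and 0.0512 without LPS replicate 1 or 2). Cdh5, the endothelial cadherin, had means of 10.71 ± 0.06 with LPS and 10.68 ± 0.25 with both agents (SD over 3 mice). The 13 B cell markers summed to 613 to 646 on the LPS arrays, 1114 on replicate 1, and 898 and 880 on replicates 2 and 3. Of these Cd37, a tetraspanin also found on other leukocytes, was called higher (2.85-fold, limma adjusted p = 0.00975, and 0.0523 without LPS replicate 2). Natural killer cell markers summed to 718 to 986 in LPS and 823 to 983 in LPS/GalN. The Kupffer cell and macrophage sums were 13163 to 18876 in LPS and 25048 to 27737 in LPS/GalN, and those of the neutrophil list 3412 to 4959 and 1533 to 2804. The median neutrophil marker did not follow its list's sums on every array. Its difference from the LPS mean was 0.14 on replicate 1 and -0.99 on replicates 2 and 3. The part of endothelial, B cell or macrophage transcripts in the values of Gimap1 and Gimap4 on replicate 1 was not tested.

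The partners through which GIMAP proteins are linked to lymphocyte survival did not share a direction. Of 11 measured genes of this list, limma called Bcl2, the survival protein after which its family is named, 3.38-fold higher (adjusted p = 0.0267), and Bcl2l1, its relative Bcl-xL, 3.16-fold lower (adjusted p = 0.00848). Stat5a, a transcription factor downstream of interleukin-7, was 3.46-fold lower (adjusted p = 0.00727). Bcl2 read 5.81, 5.31 and 6.26 on the LPS arrays, near background, so its fold compares deposited signals. It was 1.57 above its LPS mean on replicate 1 and 1.85 above it on replicates 2 and 3, a log2 difference less split between arrays than that of Gimap1. The list's median difference was 0.23. With replicate numbers fitted as a block Bcl2 was not called (limma adjusted p = 0.0884), while Bcl2l1 and Stat5a were. Without LPS/GalN replicate 1 or LPS replicate 3 Bcl2 was still called, and it was not called when any of the other 4 arrays was left out (limma adjusted p of 0.0566 to 0.1), whereas Bcl2l1 and Stat5a were called whichever single array was left out. With LPS/GalN replicates 2 and 3 left out, limma called 0 of the 11 (5 at an unadjusted p under 0.05).

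The interferon-inducible GTPases ran against most of the GIMAP members. All 10 measured (guanylate-binding and immunity-related GTPases) were called lower in LPS/GalN, where 3.03% of features were, with a median difference of -2.88 against the members' 0.61. Gbp2, a guanylate-binding protein, read 13.91, 13.61 and 13.86 on the LPS arrays and 9.79, 9.97 and 10.56 on the LPS/GalN arrays, 12.9-fold lower (limma adjusted p = 0.000517). Unlike Gimap1 and Gimap6, this list showed no split toward replicate 1, with medians of -2.71 there and -3.07 on replicates 2 and 3. With replicates 2 and 3 left out, limma called 6 of the 10 lower, and with LPS replicates 1 and 2 left out it called 0 genes of any list (10 of these 10 at an unadjusted p under 0.05). By group means no GIMAP member had a difference as negative as any of these 10, Gimap9 at -0.98 being the lowest member.

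The members lie over 94.7 kb of chromosome 6 on the mm9 build that the deposited descriptions give. From left to right the targets are Gimap9 (48626157 to 48628698), Gimap4 (48634576 to 48642059), Gimap6 (48651580 to 48658195), Gimap7 (48668657 to 48674635), Gimap1 (48689085 to 48693654), Gimap5 (48696294 to 48704199) and Gimap3 (48714462 to 48720830). These spans are the whole extents of the aligned transcripts, and which exon or untranslated region each of the 3 probes of a target lies in was not analysed here. Large and small differences lay side by side. Gimap1 lies next to Gimap5, with differences of 2.35 and 0.16, and Gimap9 lies next to Gimap4, with differences of -0.98 and 1.51. Among 10 named neighbours within 150 kb on either side, the transcript of the diamine oxidase gene (amiloride binding protein 1) was high on LPS replicates 1 and 2 only, the arrays with intestine transcripts. The differences of the other 9 ran from -0.61 to 0.19.

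**Figure D4:**
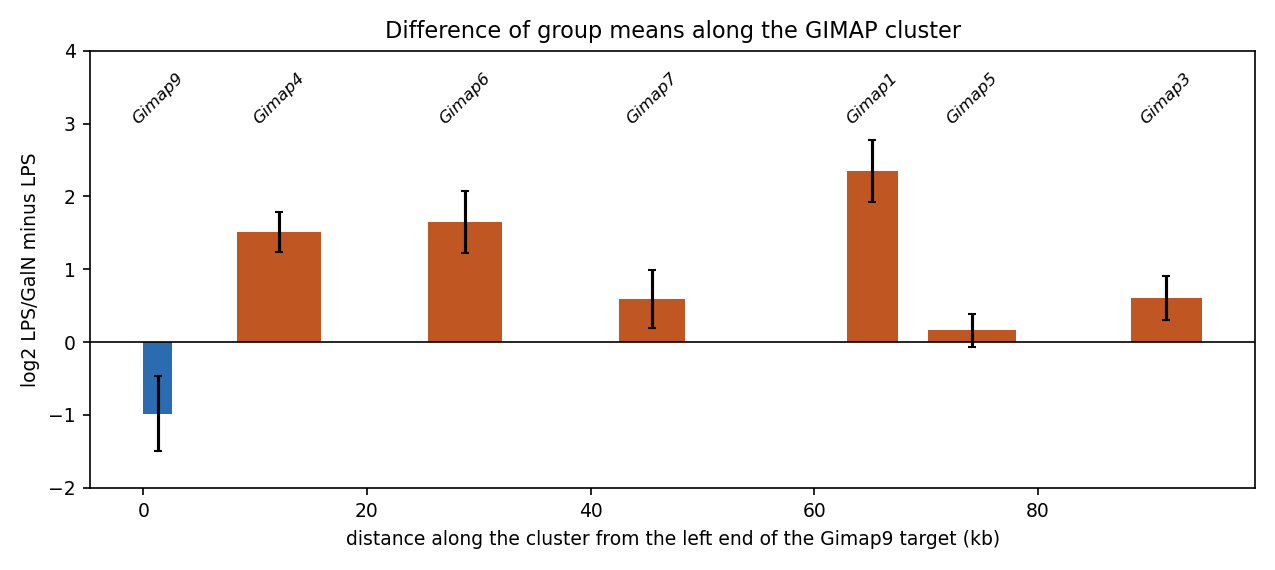
Log2 difference between group means, LPS/GalN minus LPS (vertical axis), for the 7 GIMAP members placed by distance along the cluster in kb (horizontal axis). A bar is as wide as the span of its target and the error bars are the standard error of the fit. Large and small differences lie side by side, from 2.35 for Gimap1 to 0.16 for its neighbour Gimap5.

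The mean profile of the 5 members above background on every array (Gimap3, Gimap4, Gimap5, Gimap6 and Gimap9), each centred on its own mean, was -0.37, -0.30 and -0.22 on the LPS arrays and -0.19, 0.41 and 0.67 on the LPS/GalN arrays. Averaged in this way, with Gimap9 set against Gimap4 and Gimap6, replicate 1 was close to the LPS arrays. Among 8691 named candidates the features most like this profile, by Pearson r over the 6 arrays, included autophagy-related 4A (0.994), DEAD box polypeptide 46 (0.990), the RNA-binding protein Celf2 (0.988), histone cluster 1 H2ae (0.988), meiosis-specific nuclear structural protein 1 (0.987), dedicator of cytokinesis 2 (0.987), which drives lymphocyte migration, and replication factor C1 (0.986). Autophagy-related 4A read 6.03, 6.03 and 6.19 on the LPS arrays and 6.20, 6.82 and 7.27 on the LPS/GalN arrays. These likenesses describe 6 arrays of which the same pair, LPS/GalN replicates 2 and 3, was high for the profile and for T cell transcripts.

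For Gimap6 alone, taken because its probes gave the brightest mean signal and not as a ranking of transcript levels, the same search over 3499 candidates named stearoyl-coenzyme A desaturase 2, nemo like kinase and ADP-ribosylation factor-like 2 binding protein (r = 0.990 each over 6 arrays). It went on with minichromosome maintenance 3 (0.989), a replication helicase subunit, single-stranded DNA binding protein 2 (0.988), mitotic arrest deficient 1-like 1 (0.987), scavenger receptor class F member 1 (0.987), a receptor of endothelial cells, and thymus LIM protein isoform C (0.986). Minichromosome maintenance 3 read 5.99, 5.95 and 7.04 on the LPS arrays and 7.12, 9.36 and 8.81 on the LPS/GalN arrays. As for Gimap6, LPS replicate 3 and LPS/GalN replicate 1 were close to each other between the other LPS arrays and the remaining LPS/GalN arrays.

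Leaving out single arrays kept the direction of every member and moved several calls. Gimap4 ranged from 1.37 to 1.71 on the log2 scale and Gimap1 from 2.07 to 2.82. Gimap4 was past the threshold without LPS replicate 1, without LPS/GalN replicate 1 or without LPS/GalN replicate 2, and missed it without LPS replicate 2, LPS replicate 3 or LPS/GalN replicate 3. Gimap1 was past it without LPS replicate 2 or without LPS/GalN replicate 1, and missed it without any of the other 4 arrays. Gimap6, which ranged from 1.40 to 2.08, passed it without LPS/GalN replicate 1. Gimap9 ranged from -1.46 to -0.37 and passed it in none. Since this contrast chose the family, nothing is read from which members passed. Counts of all features called in these settings are given below. LPS replicates 1 and 2 had high intestine markers. Without these arrays the differences were 2.44 for Gimap1, 1.04 for Gimap3, 1.67 for Gimap4, 0.18 for Gimap5, 1.04 for Gimap6, 1.39 for Gimap7 and -1.39 for Gimap9, all of the same sign as with them.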

How the data were processed

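RNA from 6 mouse livers, 3 per treatment, was hybridised to 6 single-colour NimbleGen arrays. Per the submitters' processing notes, the authors normalized the arrays with RMA, its settings not given in the sources used here. The deposited value of a target is a linear intensity, summarised from 3 probes for 44155 of 44170 targets. Median intensity was 60.4 to 63.1 per array, and 17.5 to 22% of targets lay at or below the random-probe background. The number of arrays limits the precision.

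The log2 of the deposited intensity was taken here. The brightest target of each gene was kept, leaving 35861 features. LPS/GalN was set against LPS with limma 3.58.1 (lmFit and eBayes, R 4.3.3), two-sided, with Benjamini-Hochberg adjustment over all features and a threshold of 0.05. The fit was tested on simulated data. Symbols came from descriptions, accessions and a hand-made table of 215 names; 12161 targets stayed unnamed. The text names all members, at most 4 brightest genes of each list with defining markers, and the 8 features most like the profile. A few items that this rule names are not reported here. Such a feature had to lie over the median feature in mean signal and have at least 0.5 of the profile's standard deviation. Members and gene lists were chosen with earlier results of these data known. Promoters were matched by symbol, for all 8 genes. Replicate numbers did not pair mice by label, and P-values measure the spread between separately treated mice. Alternatives covered normalization, filters, moderation, target rows, the authors' value table, a replicate block and left-out arrays.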

Additional observations from a re-analysis of the deposited data

How the results depend on the processing

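Probe sequences were not used here, so cross-hybridisation among GIMAP relatives was not tested. Signal over background limits Gimap5 and Gimap7 on all arrays and Gimap1 in LPS. Counts are higher and lower features, then members, then genes of all lists, from 221, 1085, 2 of 7 and 21 of 161. Trend with robust fitting gave 902 higher features and 36 list genes. The authors' value table, with 14850 features and 4 members, gave 643 higher and turned the survival partners' median to -0.44. Gimap6 was past the threshold under both of these settings, and as above nothing is read from which members passed. The replicate block gave 113 higher and 811 lower, with Gimap1 and Gimap4 past the threshold in it. With each feature's group mean subtracted, the deviations of same-numbered arrays correlated at -0.00111 to 0.0252 across features. Each was under 0.1, so the numbers were not taken as pairs. LPS/GalN replicate 1 alone against LPS gave 18, 244, 0 and 6 (unadjusted p under 0.05 for 3 members), with Gimap5 at -0.06 and the neutrophil median at 0.14. LPS replicate 3 alone against LPS/GalN gave 0 features in either direction, 0 members and 0 list genes by limma (1016, 2239, 4 and 28 at an unadjusted p under 0.05). In these last comparisons the lone array was assumed to vary like the other group. Leaving out single arrays gave 35 to 622 higher, 629 to 1087 lower, 0 to 3 members and 12 to 47 list genes, with a median member difference of 0.40 to 0.88. The higher features numbered 35 and 42 when LPS replicate 1 or 2 was dropped, and 622, 61 and 114 when LPS/GalN replicate 1, 2 or 3 was. Dropping LPS replicate 1 or 2 gave 629 and 681 lower features. List genes called numbered 12 when LPS replicate 2 was dropped, 36 for LPS replicate 3, and 47 and 14 for LPS/GalN replicates 1 and 2. By limma 0 members passed without LPS replicate 3 or LPS/GalN replicate 3 (3 and 4 at an unadjusted p under 0.05), and the median member was lowest without LPS replicate 3. By limma 1 member passed without LPS replicate 1, LPS replicate 2 or LPS/GalN replicate 2 (3, 4 and 3 at an unadjusted p under 0.05). The other settings left the members called at 2 or within 1.5 times, and the causes of these shifts were not tested.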

Other observations

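Targets with no gene name overlap the GIMAP cluster and were looked at after the files had been seen. There were 3, chosen by position alone. The target that overlaps Gimap1, at 48688344 to 48690620 on chromosome 6 (mm9), read 5.09, 5.97 and 5.82 on the LPS arrays and 6.96, 7.33 and 6.20 on the LPS/GalN arrays. Every LPS/GalN array was above every LPS array for this target, as for 13% of all features. The means differed 2.31-fold, with LPS/GalN replicate 1 above replicate 3, an order that Gimap1 itself did not have. All its LPS values lay within 1 log2 unit of background, so this fold compares deposited signals. The target over Gimap6 read 4.78, 4.65 and 6.03 in LPS and 5.77, 6.43 and 5.05 in LPS/GalN, with overlapping groups near background. The target over Gimap5 read 4.57, 5.13 and 4.87 in LPS and 5.63, 5.19 and 5.13 in LPS/GalN, with groups that met at 5.13 and lay near background. The strand of these targets relative to the named genes was not analysed here.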
